A study of Homo sapiens with 10 samples.

Results

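OVTOKO is an established human line derived from an ovarian clear cell carcinoma, and its expression was set against 6 other ovarian cancer lines measured on the same instrument. Its single PromethION nanopore library was compared with 1 library each of OVMANA, OVKATE, SK-OV-3, COV362 and COV504 and with the mean of 2 libraries of IGROV-1, which is 8 of the 10 libraries of the series; the other two, from IGROV-1 on a MinION, enter 1 alternative only. The labels name the line and the instrument and give no treatment, passage or culture, so the 2 IGROV-1 libraries may be technical repeats and no library of OVTOKO repeats another. Estimated counts were summed per gene and scaled to a common library total (CPM), and 13582 of 57110 gene identifiers had a mean of at least 1 CPM over the 7 lines. Of these, 86 genes were at least 4-fold higher in OVTOKO than in the next line on the log2(CPM + 1) scale, which is 0.633% of the genes, and 71 (0.523%) were at least 4-fold lower than in every other line.

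Ovarian clear cell carcinoma is a tumour type often linked to endometriosis. It is known for glycogen-rich cells and for secreted proteins of the clotting, complement and cytokine systems. OVMANA comes from the same tumour type, so it is the nearest comparison by origin.

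The 8 libraries held between 1729782 and 2552499 estimated counts, with OVTOKO the shallowest, so that 3 counts there equal 1.73 CPM. Mitochondrial ribosomal RNA took 2.68% of the counts in OVTOKO, and 9.13% and 10.9% in the IGROV-1 libraries, against 1.58% to 3.31% in the remaining lines. Across the genes, the Spearman correlation of OVTOKO was 0.817 with OVMANA and with SK-OV-3, 0.805 with IGROV-1, 0.774 with COV504, 0.769 with COV362 and 0.710 with OVKATE, as a description of libraries with different depths. By the same 4-fold rule the other lines had between 36 (COV362) and 267 (OVKATE) genes above all the rest, and between 19 (COV362) and 146 (IGROV-1) below all the rest. The median gene was 0.20 lower in OVTOKO than in the mean of the other lines on the log2(CPM + 1) scale, and 0.06 lower after scaling by the trimmed mean of M-values (TMM). At any margin 9.64% of genes were highest in OVTOKO and 16% lowest; with TMM scaling these shares were 12.8% and 13%.

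SLPI, a secreted protease inhibitor of mucosal surfaces given as the marker of OVTOKO, stood at 2083 CPM there. It was at 1353 CPM in SK-OV-3, 648 in OVKATE, 640 in OVMANA, 421 in COV504 and 168 in COV362, and it had no count in either IGROV-1 library. OVTOKO was thus the highest line, but only 1.54-fold above SK-OV-3, and the edgeR quasi-likelihood test gave an adjusted p of 0.93. NAPSA, an aspartic protease used to identify clear cell carcinoma, had 0.578 CPM in OVTOKO, a single count, and 1739 CPM in OVMANA. This marker of the clear cell type was thus nearly absent from OVTOKO.

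**Figure D1:**
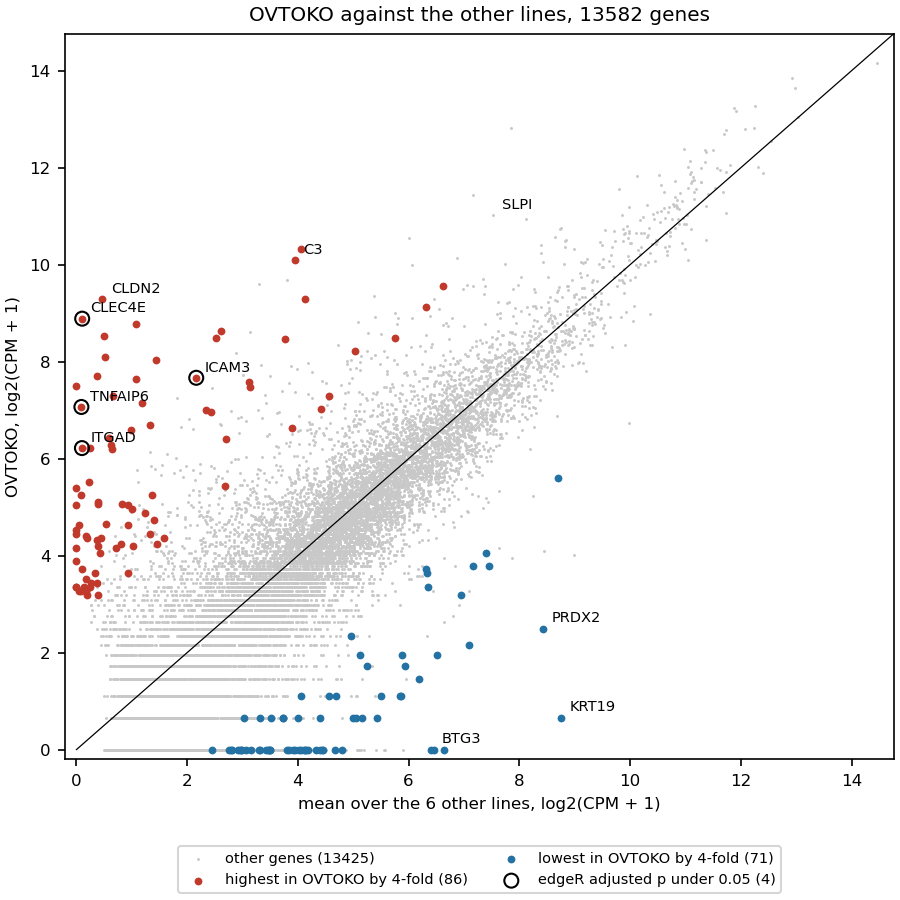
Level of each of 13582 genes in OVTOKO (vertical axis) against its mean over the 6 other lines (horizontal axis), both as log2(CPM + 1). Red points are the 86 genes highest in OVTOKO by 4-fold, blue points the 71 lowest by 4-fold, circles the 4 genes with an edgeR adjusted p under 0.05, and the line marks equal levels; the labelled SLPI lies above the line but is not among the red points.

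A test across the lines asked whether OVTOKO lay outside the spread of the 6 others. With edgeR, 4 of 13582 genes (0.0295%) had an adjusted p under 0.05, all higher in OVTOKO: CLEC4E, TNFAIP6, ITGAD and ICAM3. The edgeR test rarely called lowered genes when checked on simulated data. At a log2 change of 4, with 99 of 200 changed genes raised, it recovered 34, of which 33 were raised. At a change of 6, with 107 of 200 raised, it recovered 96, of which 84 were raised. Whether OVTOKO had more raised than lowered genes was thus not tested by these calls. ICAM3 was named after its values were seen. DESeq2 on the same counts called 62 genes, 17 higher and 45 lower, so the split between higher and lower differed between the tools; all 4 edgeR calls were among the 62. The test takes its spread from 1 column per line and assumes that OVTOKO varies like the rest. The coefficient of variation between lines was 80.5% (edgeR's common dispersion). The remaining genes are described by their levels. Over all genes 567 had an unadjusted p under 0.05. Leaving out OVMANA, SK-OV-3, COV362 or COV504 left 0 calls by edgeR; the genes with an unadjusted p under 0.05 then numbered 734, 613, 474 and 498 respectively.

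CLEC4E, a C-type lectin receptor of macrophages that recognises mycobacterial glycolipid and dead cells, was at 472 CPM in OVTOKO (817 counts). The 7 other libraries together held 1 count, in OVMANA (adjusted p = 0.0085). The gene lies at chr12:8533305-8540963 (GRCh38, minus strand). TNFAIP6, a secreted hyaluronan-binding protein induced by tumour necrosis factor, had 133 CPM in OVTOKO and 1 count in COV504 (adjusted p = 0.0152). ITGAD, an integrin alpha chain of leukocytes, had 73.4 CPM in OVTOKO and 1 count in SK-OV-3 (adjusted p = 0.0453). All 3 genes were thus at or near 0 outside OVTOKO, and they passed the filter only through their level there. With 1 count of each gene in the other libraries, these give little measure of its spread between lines. ICAM3, a leukocyte adhesion ligand, was at 202 CPM in OVTOKO and at 9.89 CPM in OVKATE, 5.34 in COV504, 2.57 in IGROV-1, 2.53 in SK-OV-3, 2.14 in OVMANA and 1.96 in COV362. Its log2 fold change was 5.84 with a standard error of 0.62 (edgeR adjusted p = 0.0467), and OVTOKO was higher than all 7 other libraries.

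Several of these genes are known from leukocytes. Further such genes among the 86, picked out after their values were seen, were APBB1IP at 72.3 CPM, AOAH at 13.9, ITGAX at 8.67 and STAT4 at 8.09 CPM, each at 3.04 CPM or less in every other line. Of the 11 leukocyte markers listed, only CD14 had a mean of at least 1 CPM. It had no count in OVTOKO and was at 0 to 4.004 CPM in the other lines. The other listed markers did not pass the filter, and their levels were not summed. The pan-leukocyte gene PTPRC did not pass the filter on low levels. With 1 marker measured, the part of leukocyte RNA in these levels was not tested.

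Further genes with large gaps had various functions. CLDN2, a claudin that forms cation- and water-permeable tight junctions, stood at 624 CPM in OVTOKO and at most at 1.78 CPM elsewhere, in COV504 (edgeR adjusted p = 0.0822). CLDN2 also passed the filter only through OVTOKO, and its spread between lines rests on 7 counts in the other libraries. ABCB1, the drug efflux pump P-glycoprotein, was at 73.4 CPM in OVTOKO, and 3 counts were found in all other libraries together. Both genes lay under 3 CPM in each other library. GAL3ST1, which makes the sulphatides of kidney and myelin, had 207 CPM in OVTOKO against 1.28 CPM in IGROV-1. ACMSD, which limits the synthesis of NAD from tryptophan, had 31.8 CPM in OVTOKO and no count elsewhere, at least 19.8-fold above the level of 3 counts in the shallowest other library.

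The remaining genes with the largest gaps were as follows. LY6K, a GPI-anchored protein normally expressed in testis, had 181 CPM in OVTOKO and no count in the other 7 libraries, at least 113-fold above the same floor. IRAK3, an inhibitor of Toll-like receptor signalling, had 41.0 CPM and IL31RA, a cytokine receptor chain, 21.97 CPM, again with no count elsewhere; their bounds were 25.6-fold and 13.7-fold. SRGN, the proteoglycan core protein of secretory granules, was at 436 CPM against 3.74 CPM in OVMANA, the next line. IGFBP1, a secreted binding protein of insulin-like growth factors and a marker of decidual cells and of clear cell carcinoma, was at 156 CPM against 4.05 CPM in SK-OV-3. COLEC10, a collectin, had 37.0 CPM in OVTOKO and 2 counts in the other libraries. The long non-coding RNA LINC02274 had 369 CPM and at most 1.60 CPM elsewhere. Taken as a set, 48 of the 86 genes had a mean under 1 CPM in the other lines, and 9 had no count in any of their libraries. The mean used for the filter includes OVTOKO, so these 48 genes passed it only through their level there.

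**Figure D2:**
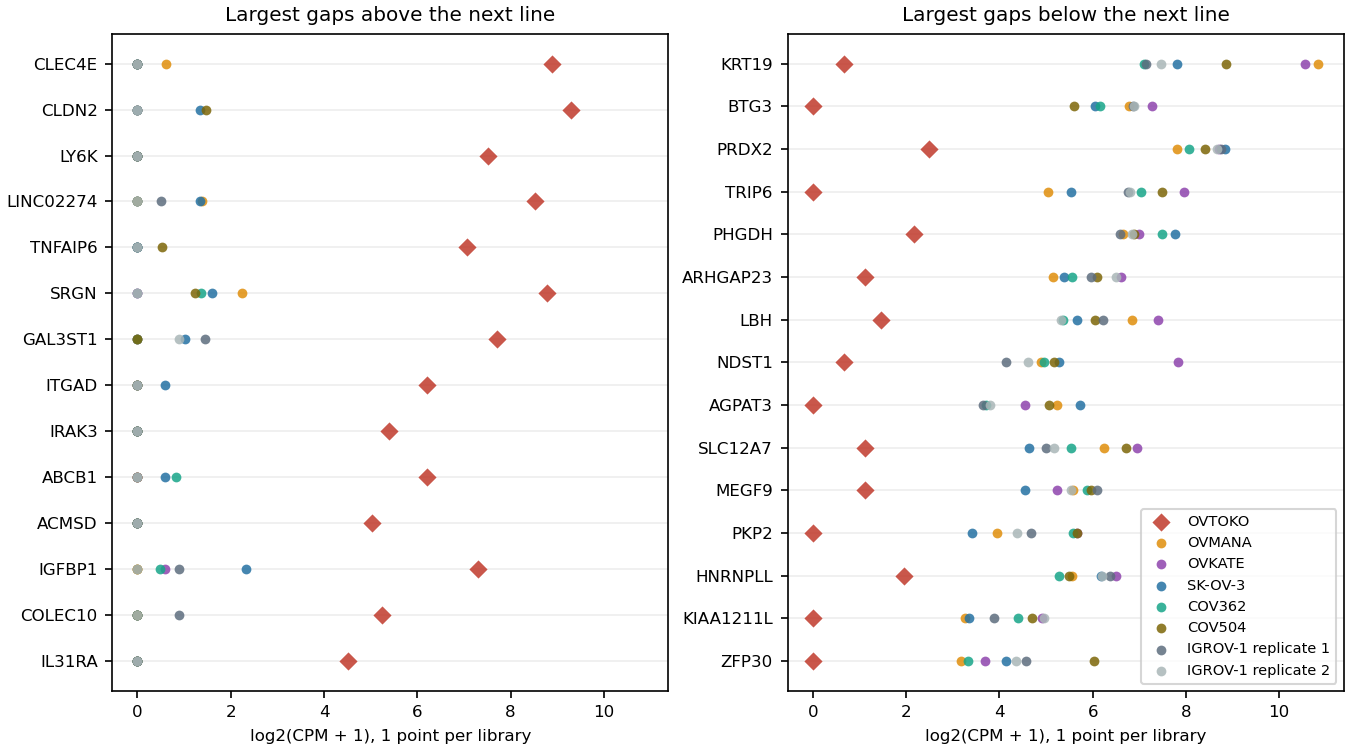
Level of 14 of the 15 single genes with the largest gap above the next line (left) and the 15 with the largest gap below it (right). Levels are log2(CPM + 1), 1 point per library, with OVTOKO as the red diamond. On the left the other libraries lie near 0, with CLEC4E at 472 CPM in OVTOKO; on the right OVTOKO lies at or near 0, with KRT19 at 0.578 CPM there and at 136 CPM or more in every other line.

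Of the 10 most abundant single genes among the 86, CLDN2, CLEC4E, SRGN and LINC02274 lay under 4 CPM in every other line, and the others did not. C3, the central complement component, reached 1087 CPM in OVTOKO, with 137 CPM in OVKATE, 70.5 in OVMANA, 15.6 in COV504, 12.2 in SK-OV-3, 5.09 in COV362 and none in IGROV-1. SOD2, the mitochondrial superoxide dismutase, was at 751 CPM and between 46.0 and 185 CPM in the other lines, which places it just inside the 4-fold threshold. FIBCD1, a chitin-binding receptor, lay just outside it at 57.2 CPM against 13.7 CPM in the next line. PDZK1IP1, a small membrane protein of kidney epithelium, was at 622 CPM against 138 CPM in OVMANA. CLDN10, another claudin, was at 397 CPM against 67.9 CPM in SK-OV-3. FGFR1, a fibroblast growth factor receptor, was at 356 CPM against 81.6 CPM in OVKATE. The line with the next highest level was OVMANA for 23 of the 86 genes, SK-OV-3 for 19, IGROV-1 for 14, OVKATE for 13, COV504 for 10 and COV362 for 7. Without OVMANA the count of genes highest by 4-fold was 154.

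The lowest genes included 1 keratin (KRT19), 1 peroxiredoxin (PRDX2) and 1 enzyme of serine synthesis (PHGDH) that every other line expressed. KRT19, a type I keratin of simple epithelium, had 1 count in OVTOKO (0.578 CPM, 95% Poisson interval 0.0146 to 3.22, which covers counting error only). It was at 1833 CPM in OVMANA, 1506 in OVKATE, 466 in COV504, 223 in SK-OV-3, 136 in COV362, and 140 and 176 in the IGROV-1 libraries. OVTOKO lay far below a range that itself spanned more than a decade, and the edgeR adjusted p was 0.91. PRDX2, a peroxiredoxin that removes hydrogen peroxide in the cytosol, had 4.62 CPM in OVTOKO and 222 CPM in OVMANA, 266 in COV362, 340 in COV504, 419 in IGROV-1, 420 in OVKATE and 456 in SK-OV-3. Here the other lines lay close together and the adjusted p was 0.0739. The gene is at chr19:12796820-12801859 (minus strand). PHGDH, the first enzyme of serine synthesis, had 3.47 CPM in OVTOKO and between 99.4 and 216 CPM elsewhere (adjusted p = 0.16). The downstream enzymes PSAT1 and PSPH were at 321 and 42.2 CPM in OVTOKO, ranks 5 and 2 of the 7 lines.

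BTG3, an antiproliferative gene induced by DNA damage, had no count in OVTOKO and 47.6 to 153 CPM in the other lines, at least 27.4-fold lower than the nearest line when set against 3 counts. TRIP6, a LIM-domain protein of focal adhesions, also had no count, against 32.1 to 248 CPM, at least 18.5-fold lower. AGPAT3, an acyltransferase of phospholipid synthesis, and PKP2, a plakophilin of desmosomes, had no count, with bounds of 7-fold and 5.55-fold. KIAA1211L and the zinc finger gene ZFP30 had no count either, with bounds of 4.93-fold and 4.62-fold. For the remaining genes with the largest gaps below, OVTOKO had 1 to 5 counts: ARHGAP23, a GTPase-activating protein, LBH, a transcription regulator, NDST1, an enzyme of heparan sulphate, SLC12A7, a potassium-chloride cotransporter, MEGF9, and HNRNPLL, a splicing regulator. Their levels in the other lines were at least 20.1 CPM. In all, 55 of the 71 genes had 3 counts or fewer in OVTOKO, and 36 had none. KLF13 lay just inside the threshold, at 11.6 CPM against 49.7 CPM in the lowest other line, and NUPR1 just outside, with no count against 2.998 CPM. Of 6892 single genes at 5 CPM or more in each other line, 42 had 3 counts or fewer in OVTOKO; among these genes ordered along the chromosomes, 1 run of neighbours was found, ZNF567 (3 counts) and ZFP30 (none) on chromosome 19.

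The gene lists were read by how many measured members stood at either end of the 7 lines, beside 9.64% of all genes highest and 16% lowest. At a margin of at least 2-fold 243 genes (1.79%) were highest and 309 (2.28%) lowest. No member of a list was called by edgeR. A level in a bulk culture does not separate fewer cells expressing a gene from less RNA per cell.

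NRF2 is a transcription factor that induces antioxidant and detoxifying enzymes. Of 27 measured genes of its list, 12 (44.4%) were highest in OVTOKO and 2 lowest, with a median difference to the mean of the other lines of 0.98 on the log2(CPM + 1) scale against -0.20 for all genes. The highest count in any other line was 4. AKR1B1, an aldo-keto reductase, was at 1026 CPM in OVTOKO and at 350 CPM in COV504, the next line. AKR1C1, which reduces steroids and aldehydes, was at 779 CPM and at 290 CPM in SK-OV-3, with 10.97 CPM or less elsewhere. HMOX1, which degrades haem, was at 103 CPM against 35.5 CPM in SK-OV-3. NQO1, the usual reporter of the pathway, was at 1031 CPM and thus closer to SK-OV-3 at 880 CPM. SLC7A11, the cystine transporter, was at 1.16 CPM in OVTOKO and at 97.2 CPM in SK-OV-3; the IGROV-1 libraries, at 0.427 and 2.15 CPM, lay on either side of OVTOKO.

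Of 28 hypoxia response genes, 12 (42.9%; 14 with TMM scaling) were highest in OVTOKO and 1 lowest, with a median difference of 0.88; another line had up to 10 of them highest. LOXL2, a lysyl oxidase that cross-links collagen, was at 190 CPM against 41.0 CPM in SK-OV-3. BNIP3, a mitophagy receptor, was at 353 CPM and between 47.0 and 166 CPM elsewhere. PDK1, which restrains entry of pyruvate into mitochondria, was at 26.6 CPM against 10.1 CPM in SK-OV-3. The hypoxia marker CA9 had no count in OVTOKO, nor in any other line but SK-OV-3 (7.60 CPM) and COV504 (1.33 CPM), and SLC2A1, the main glucose transporter, was sixth of the 7 lines at 131 CPM. SK-OV-3, with 635 CPM, was its highest line.

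Among 16 genes of the coagulation and plasminogen system, 4 were highest and none lowest, with a median difference of 1.21; another line had 5 highest. TFPI, the inhibitor of tissue factor, was at 390 CPM in OVTOKO and 109 CPM in SK-OV-3. PLAU, the urokinase plasminogen activator, was at 510 CPM against 254 CPM in SK-OV-3. Tissue factor itself, F3, was highest at 254 CPM, with COV504 at 163 CPM.

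Of 12 measured complement genes, 4 (33.3%) were highest and 1 lowest, with at most 3 highest in another line, and beside C3 the serine protease CFI, which inactivates C3b, was at 352 CPM against 42.7 CPM in COV362. Of 15 iron genes, 6 were highest and 1 lowest, with at most 4 highest in another line. ACO1, which doubles as an iron sensor, was at 188 CPM in OVTOKO and between 15.8 and 47.2 CPM elsewhere. Of 22 cytokine genes 5 (22.7%) were highest and 2 lowest, and another line had 8 highest. CSF1, the macrophage growth factor, was at 297 CPM against 60.5 CPM in IGROV-1, the next line, where the 2 libraries gave 37.2 and 83.8 CPM. CXCL5, a neutrophil chemokine, was at 211 CPM in OVTOKO and 3010 CPM in OVMANA. IL6 was likewise second to OVMANA, with 67.6 and 91.9 CPM. The cytokines abundant in both clear cell lines were thus not all at their peak in OVTOKO.

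Of 28 growth factor receptors and ligands, 8 (28.6%) were highest and 3 lowest, although the median difference of the list was -0.40; another line had 9 highest. IGFBP6 was at 326 CPM against 158 CPM in SK-OV-3, and TGFA, a ligand of the epidermal growth factor receptor, at 46.8 CPM against 20.8 CPM in SK-OV-3. IGF1R, the receptor of insulin-like growth factors, had no count in OVTOKO and 2.97 to 48.9 CPM elsewhere. Of 14 clear cell carcinoma markers, 6 (42.9%) were highest and 1 lowest, with at most 5 highest in another line, IGFBP1 among the former; ANXA4, a calcium-dependent membrane-binding protein, was at 1960 CPM against 798 CPM in OVMANA. DPP4, a peptidase on the list, had no count in OVTOKO. SPP1, osteopontin, was at 7191 CPM and second to OVMANA at 16461 CPM. Among 40 interferon-stimulated genes 4 were highest and 1 lowest, with a median of -0.40 and 23 highest in another line; GBP2, a guanylate-binding protein, was at 102 CPM against 38.4 CPM in COV362. Among 16 mucosal defence genes 3 were highest and none lowest, and another line had 10 highest. Of the 16, 11 lay below the mean of the other lines, with a median difference of -0.42 against -0.20 for all genes. Beside SLPI, the elastase inhibitor PI3 was at 31.8 CPM against 2.14 CPM in OVMANA and the immunoglobulin transporter PIGR at 10.4 CPM against 1.07 CPM in OVMANA.

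Most epithelial and Müllerian genes lay below the mean of the other lines, 18 of 23 and 10 of 12. The median over all genes was -0.20, so most genes of any kind lay below that mean as well. None of 23 epithelial genes was highest in OVTOKO, 5 (21.7%) were lowest, beside up to 7 in another line, and the median difference was -2.10. EPCAM, an epithelial adhesion molecule, was at 8.67 CPM in OVTOKO, 1814 in OVMANA, 817 in OVKATE, 365 in COV504, 158 in COV362, 45.6 in SK-OV-3 and under 1 CPM in both IGROV-1 libraries. KRT7 was at 14.5 CPM in OVTOKO, without a count in IGROV-1, and at 363 CPM or more in the other 5 lines. CLDN7 was at 1.16 CPM against 5.09 CPM in COV362, the lowest other line, and the splicing regulator ESRP2 had no count. CDH1, or E-cadherin, was at 2.31 CPM in OVTOKO, with 1.57 CPM in COV362 and none in IGROV-1, so OVTOKO was 1 of several lines with little of it. KRT8 and KRT18 were at 134 and 314 CPM.

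None of 12 Müllerian and serous markers was highest and 1 (8.33%) was lowest, and the median difference was -2.62. SOX17, a transcription factor of the Müllerian lineage, was at 10.4 CPM in OVTOKO and 26.2 CPM or more in each other line. PAX8, the factor most used to mark this lineage, was second of the 7 lines at 234 CPM, after OVMANA at 340 CPM. WT1, ESR1 and MUC16 had no count in OVTOKO, but each also had none in at least 1 other line.

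Of 24 mesenchymal genes, 3 (12.5%) were highest and 1 lowest, with a median of 0.08 and up to 13 highest in another line. VIM, or vimentin, was at 3663 CPM, second to SK-OV-3 at 5964 CPM, and CDH2, or N-cadherin, had no count. ACTA2, smooth muscle actin, was at 27.7 CPM against 9.62 CPM in OVMANA, and the collagen COL1A1 had no count against 1.60 CPM or more. Among 5 measured fibroblast and endothelial markers none was highest, and their sum was 1.16 CPM in OVTOKO and 2.14 to 316 CPM elsewhere.

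Of 30 sterol and fatty acid synthesis genes none (1 with TMM scaling) was highest and 7 (23.3%) lowest, with a median of -0.48. HMGCS1, an early enzyme of cholesterol synthesis, was at 29.5 CPM against 49.4 CPM in COV362, and SQLE at 46.8 CPM against 52.4 CPM in OVMANA. These gaps were small. Of 19 integrins and laminins, 5 were highest and 2 lowest, with a median of 0.89 and 16 above the mean of the other lines; ITGB8, a lowest member, was at 1.16 CPM. Of 16 G1 regulators, CCND1 and CDKN1C were lowest, at 117 and 1.16 CPM, and CDKN2A had no count in OVTOKO or in COV504. For the other lists, metallothioneins had 1 of 8 genes highest and none lowest, class I antigen presentation 2 of 16 and none (4 and none with TMM scaling), Wnt and TGF-beta genes 2 and 3 of 26, aldehyde and glucuronide enzymes 2 and none of 15, SWI/SNF and PI3K genes none and 2 of 17, HOX genes none and 1 of 24, cancer testis genes 1 and none of 11, mesothelial markers 1 and none of 5, and S100 genes none of 11 at either end.

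**Figure D3:**
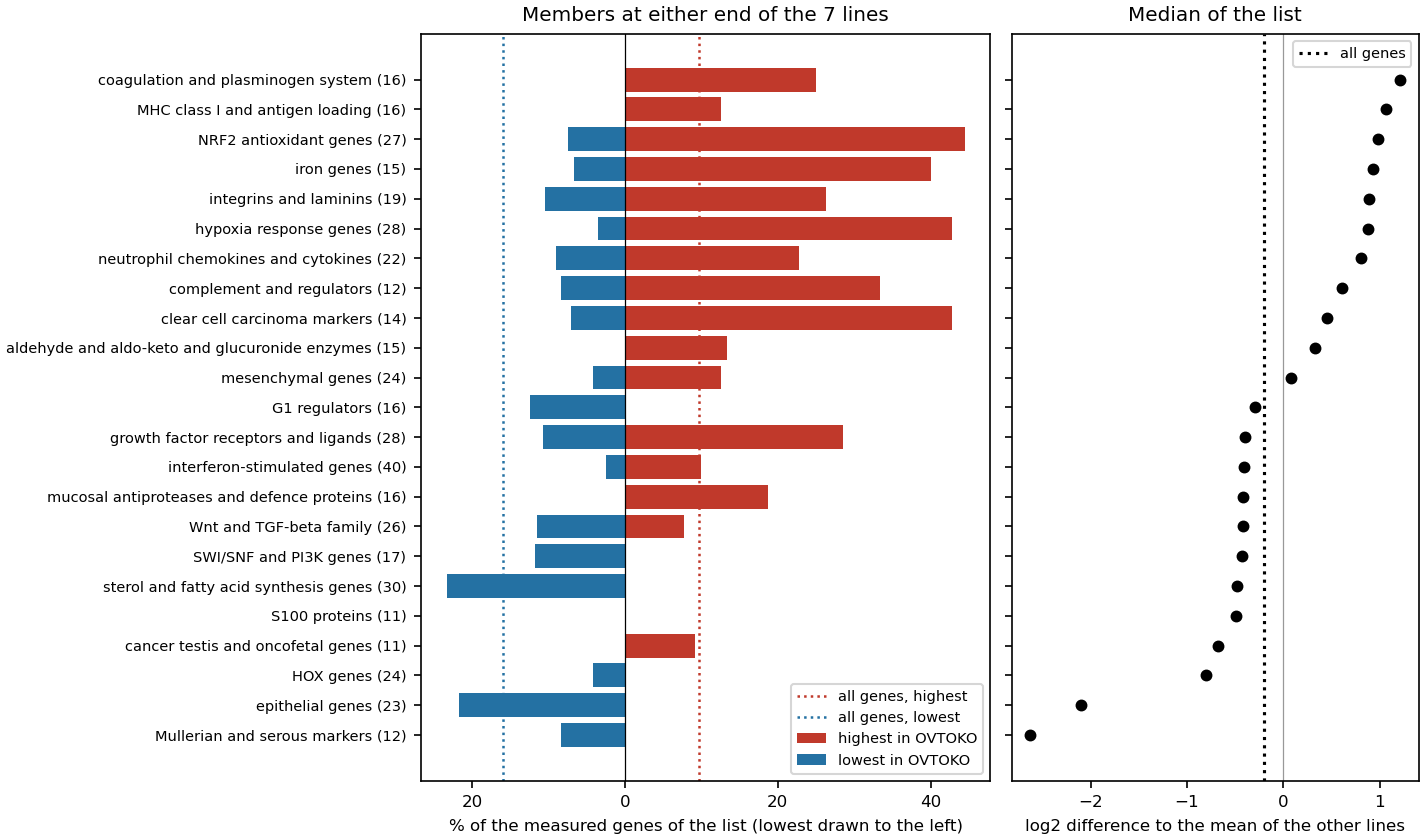
Left: percentage of the measured genes of each list with at least 10 measured genes (number in brackets) that were highest in OVTOKO (red, to the right) or lowest (blue, to the left) of the 7 lines, with dotted lines at 9.64% and 16% for all genes. Right: median difference between OVTOKO and the mean of the other lines on the log2(CPM + 1) scale, with the dotted line at -0.20 for all genes; the NRF2 list has 44.4% of its genes highest, and the Müllerian list has the lowest median, -2.62.

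Zinc finger genes recurred among the 71 lowest genes: 13 carried a ZNF or ZFP name, 11 of them on chromosome 19. Zinc finger genes of this type mostly encode KRAB repressors, many of which sit in clusters on that chromosome and silence transposable elements. The family was chosen after these values were seen. Of 179 single ZNF and ZFP genes of chromosome 19 that passed the filter, 80 (44.7%) were lowest in OVTOKO, also with TMM scaling, and 3 were highest. In the other lines 4 to 15 of the 179 were lowest. Their levels summed to 511 CPM in OVTOKO and to between 1079 CPM (IGROV-1) and 1643 CPM (SK-OV-3) elsewhere. OVTOKO had 3 counts or fewer for 122 of them, and the other lines for 23 to 40. The median difference was -1.23, against -0.36 for the 699 other single genes of chromosome 19, of which 17.6% were lowest. For 224 ZNF and ZFP genes of other chromosomes, 51 (22.8%) were lowest in OVTOKO and 53 (23.7%) in OVMANA. Along chromosome 19 the number lowest was 3 of 16 genes in the first 10 Mb, 5 of 20 from 10 to 20 Mb, 7 of 15 from 20 to 30 Mb, 19 of 32 from 30 to 40 Mb, 6 of 17 from 40 to 50 Mb and 40 of 79 beyond 50 Mb. These genes are scarce, and only 27 had a mean of at least 10 CPM; 12 of these 27 were lowest in OVTOKO, beside 18.0% of all 8813 genes at that level. The part of depth in this count was not tested beyond that filter, and OVTOKO was the shallowest library.

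The clustered protocadherins, cell adhesion genes of chromosome 5 also chosen after their values were seen, summed to 1.16 CPM over 13 genes in OVTOKO. They summed to 26.2 CPM in OVMANA and to 64.1 to 132 CPM in the other lines. All 13 had 3 counts or fewer in OVTOKO, as did 9 in OVMANA, 5 in IGROV-1 and 1 to 4 in each remaining line. In OVTOKO 6 (46.2%) were lowest, beside 16% of all genes, and in each other line 0 were. A gene without a count in OVTOKO cannot be lowest in another line. The median of the 13 genes was 0 CPM in OVTOKO, so the 0 in each other line mostly follows from the OVTOKO levels. Only 1 of the 13 had a mean of at least 10 CPM.

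**Figure D4:**
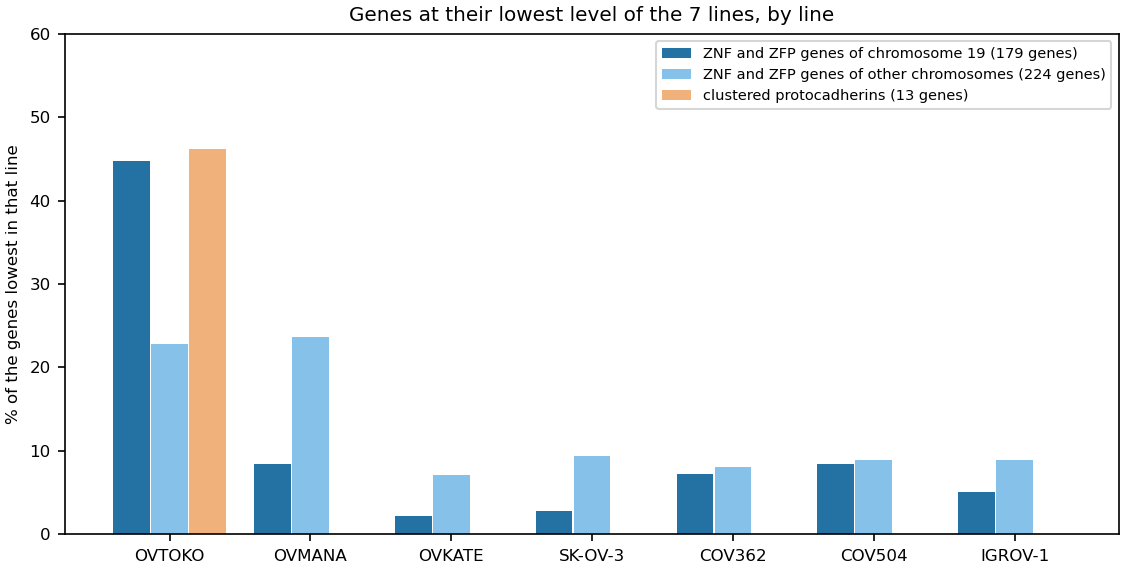
Percentage of genes at their lowest level of the 7 lines, by line, for ZNF and ZFP genes of chromosome 19, for those of other chromosomes, and for the clustered protocadherins; a gene tied at 0 counts for no line. OVTOKO has 44.7% of the chromosome 19 genes, the other lines at most 8.38%, and OVTOKO and OVMANA have 22.8% and 23.7% of those elsewhere.

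Nanopore reads can span whole transcripts, so the share of a gene's counts taken by each transcript was compared as well, in 2964 gene identifiers with at least 50 counts in every library. Of 10809 transcripts, 17 (0.157%) had a share in OVTOKO at least 20 percentage points outside the range of the 6 other lines, 9 above (0.0833%) and 8 below (0.074%). The other lines had between 10 (COV504) and 28 (OVKATE) such transcripts. Without OVMANA there were 27. In edgeR's test of transcript usage 0 of 5422 genes (0%) passed an adjusted p of 0.05, and 20 had an unadjusted p below that value. Its gene-level F test also gave 0, and 254 unadjusted. A limma test on the log-odds of shares, added after seeing the data, gave 0 of 3215 transcripts, and 173 unadjusted. The shares below are therefore descriptions, with 95% Wilson intervals that cover counting error only.

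For 2 of the genes with the largest share gaps, a short coding segment separates the main transcripts; it is printed here because the shares count transcripts with and without it. Both are from the GENCODE 29 transcripts (GRCh38, minus strand), 5′ to 3′, with the segment in capitals and 15 flanking bases of the same transcript in lower case. The FLNA segment is exon 29 of the 47 exons of FLNA-203, 24 bases or 8 codons at chrX:154357251-154357274, which FLNA-201 skips; FLNA-201 also has 61 bases at its 5′ end that FLNA-203 lacks, and the annotated coding sequences start differently. The MTCH1 segment is 51 bases or 17 codons of exon 8 of 12 of MTCH1-202, at chr6:36972652-36972702, which MTCH1-201 lacks and which is the only difference between them.
FLNA: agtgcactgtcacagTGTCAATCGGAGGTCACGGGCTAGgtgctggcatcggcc
MTCH1: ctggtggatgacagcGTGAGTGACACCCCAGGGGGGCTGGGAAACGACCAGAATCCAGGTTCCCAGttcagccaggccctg

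FLNA encodes filamin A, which cross-links actin filaments. The transcript with the 24-base exon took 24.9% of FLNA counts in OVTOKO (interval 21.4 to 28.7). It took 47.0% and 47.7% in the IGROV-1 libraries, 49.4% in OVMANA, 65.8% in OVKATE, 66.6% in COV504, 68.0% in SK-OV-3 and 68.2% in COV362. The transcript without it, FLNA-201, made up 69.2% in OVTOKO and at most 49.8% in another line. MTCH1 encodes an insertase of the outer mitochondrial membrane. MTCH1-201, without the 51 bases, took 82.0% of the counts in OVTOKO (77.8 to 85.7), and 63.6% and 55.7% in the IGROV-1 libraries, 50.9% in COV362, 49.7% in SK-OV-3, 48.1% in COV504, 41.8% in OVMANA and 39.2% in OVKATE. In both genes the transcript with the short coding segment had a lower share in OVTOKO than in any other library, and the gene had at least 263 counts (FLNA) or 354 counts (MTCH1) in each. The limma adjusted p was 0.683 for FLNA-203 and 0.533 for MTCH1-201.

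For the other genes with large share gaps the transcripts differ at an end or by several exons. CPSF7, a subunit of the cleavage factor that sets poly(A) sites, had 43.6% of its counts (34.0 to 54.2) on CPSF7-202 in OVTOKO and 68.4% or more in every other line; CPSF7-201, with another first exon, took 42.6% in OVTOKO and at most 21.0% elsewhere. C19orf24-202 took 55.6% in OVTOKO (44.1 to 67.7) and at most 31.7% in another line. ATXN2L-202, of an RNA-binding protein of stress granules, took 80.1% in OVTOKO (72.9 to 85.6) and 23.7% to 56.4% elsewhere. IMP3, a protein of ribosomal RNA processing, has 2 transcripts with the same coding sequence. IMP3-201 took 10.98% in OVTOKO (6.79 to 18.5) and 32.0% to 52.7% in the other lines, with the IGROV-1 libraries at 28.2% and 37.3%. S100A4, a calcium-binding protein, had 49.6% on S100A4-204 in OVTOKO (42.6 to 56.9) and 70.4% to 94.3% in the other lines, again with an unchanged coding sequence between the main transcripts. Its counts ranged from 88 to 10237 between the libraries.

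In SRRT, which acts with the nuclear cap-binding complex, SRRT-215 lacks 3 coding bases of SRRT-213, and it took 47.5% of the counts in OVTOKO (36.1 to 58.6) and at most 28.1% elsewhere. PRMT2-203, of an arginine methyltransferase, took 45.6% (36.5 to 54.8) against at most 27.7% in another line, IGROV-1, whose libraries were at 24.2% and 31.2%. NMRAL1-202, of an NADP sensor, took 66.5% (56.6 to 75.4) against at most 48.7% in another line, IGROV-1, whose libraries were at 51.0% and 46.4%. PTPMT1-202, of a mitochondrial phosphatase, took 74.3% (65.4 to 81.6) against at most 56.6%. CTNNB1, or beta-catenin, had at least 186 counts in every library, the most of these 5 genes; CTNNB1-202 took 19.6% in OVTOKO (14.3 to 25.6) and 37.2% to 51.9% elsewhere, and it has the same coding sequence as CTNNB1-203 with 204 fewer non-coding bases. The transcripts of these 5 genes had share gaps of 17.6 to 19.4 points, outside the range of the other lines by less than the 20-point threshold, whereas CPSF7-202 had one of 24.8 points.

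**Figure D5:**
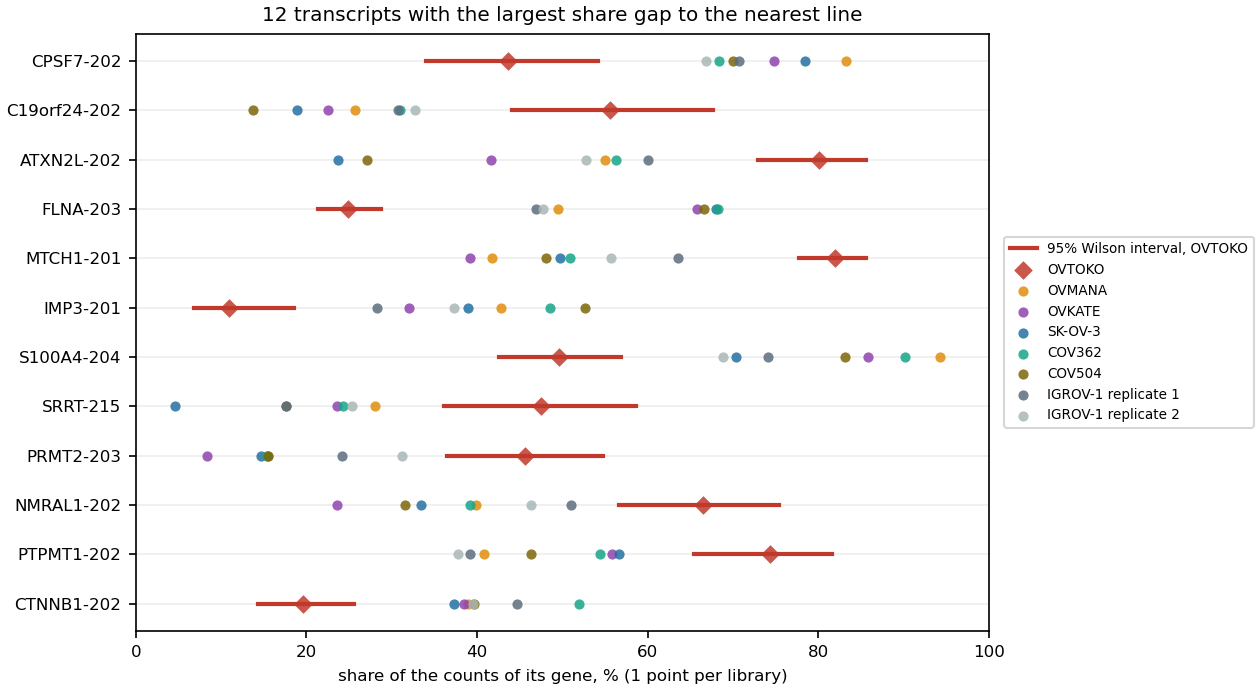
Share of each of 12 transcripts in the counts of its gene (horizontal axis, %), 1 point per library, with OVTOKO as the red diamond and its 95% Wilson interval as the red line. MTCH1-201 is at 82.0% in OVTOKO and 63.6% or less elsewhere, and FLNA-203 at 24.9% in OVTOKO and 47.0% or more elsewhere.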

How the data were processed

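Column-purified RNA of 7 ovarian cancer lines was sequenced as nanopore ligation libraries, per the labels' protocols. The authors aligned reads with minimap2 2.24-r1122 to GRCh38, per the submitters' processing notes, and deposited expected counts and TPM per transcript. The deposited TPM equal the CPM, with no length term, so they were not used further. The annotation holds 99493 transcripts, and 98.6% of those compared had the coordinates of GENCODE 29. The counting tool and its strand setting are not given in these sources. Counts were summed per gene identifier, rounded for edgeR 4.0.16, DESeq2 1.42.0 and limma 3.58.1 (R 4.3.3), and scaled to CPM; rounding removed at most 0.0258% of a library. Of the identifiers, 722 join several overlapping genes and hold 4.57% to 5.96% of the counts. They were counted but left out of the named genes, and a few are described by transcript under the other observations.

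Genes were kept where the mean over 7 line columns reached 1 CPM; both IGROV-1 PromethION libraries were summed for edgeR (robust quasi-likelihood, TMM, Benjamini-Hochberg, two-sided, threshold 0.05) and averaged otherwise. Gaps use a pseudocount of 1 CPM. Named genes are single genes: 15 with the largest gap on each side, 10 with the highest CPM among those highest by 4-fold, list members 2-fold past the nearest line, defining list members, the run of neighbours, SLPI, and 12 transcripts by share gap. ICAM3, the fourth gene called, falls under none of these. Tests were checked on simulated data with 200 changed features. At log2 changes of 2, 4 and 6 the edgeR gene test recovered 0%, 17% and 48% of them. The edgeR usage test recovered 0% at changes of 2 and 4. For changes of 2 and 4 in the log-odds the limma test recovered 18.5% and 76%. Members and lists were chosen with earlier results of these data known. Alternatives covered tool, scaling, filter, pseudocount, threshold and each left-out library. Every depth limit quoted is for 3 counts. Intervals cover counting error only. Some genes that the naming rule selects are not reported here.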

Additional observations from a re-analysis of the deposited data

How the results depend on the processing

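No paired analysis was possible because only the IGROV-1 libraries carry replicate numbers and OVTOKO has 1 library. The 4 genes called by edgeR became 11 with no filter on low counts, 9 with both IGROV-1 libraries as separate columns, 62 with DESeq2 (17 higher, 45 lower) and 2061 when the spread came from the IGROV-1 libraries alone (1491 higher, 570 lower), which measures repeats of 1 line in place of the difference between lines; leaving out 1 library gave 0 to 4. The 0 genes with differing transcript usage became 16 with the IGROV-1 spread; the test had too little power between lines for a count of 0 to show that usage was alike or stable.

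Genes highest by 4-fold numbered 86, and 48 with a pseudocount of 5 CPM, 39 with a mean of at least 10 CPM and 38 at 8-fold; leaving out 1 library gave 86 to 154. Genes lowest by 4-fold numbered 71, and 133 with a pseudocount of 0.5 CPM, 14 with 5 CPM and 17 at 8-fold, with 68 to 103 when a library was left out. Of the 71, 62 were also among the 64 found with TMM scaling. Transcripts with a share outside by 20 points numbered 17, and 52 with at least 20 counts per gene and library, 3 with 200, 3 at 30 points and 11 without joined identifiers; leaving out 1 library gave 14 to 27. For the 36 genes with the largest gaps or levels, 281 of 360 recomputed gaps stayed within the counting interval of OVTOKO. A further 79 moved beyond it and 0 changed sign. These genes were chosen for their gaps or levels, and leaving out a whole line can only keep or widen a gap. The 0 sign changes and the counts with a line left out are therefore no test of the gaps. The chromosome 19 zinc finger count, an alternative set added after seeing the data, was 78 to 91 of 179 when a library was left out. Depth limits the low end most: 3 counts in OVTOKO equal 1.73 CPM, so many genes called lowest there cannot be told from 0.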

Other observations

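Beyond the named genes, the 86 genes highest in OVTOKO held several that are known for secretion by liver or transport in kidney; they were picked out after their values were seen. SAA1, an acute-phase protein, was at 260 CPM against 20.02 CPM in COV504. AMBP, the precursor of alpha-1-microglobulin, was at 76.3 CPM against 3.42 CPM in IGROV-1, and LBP, which binds bacterial lipopolysaccharide, at 23.7 CPM against 0.215 CPM there. HABP2, a plasma protease, had 9.25 CPM in OVTOKO and no count elsewhere. CDH16, a cadherin of kidney tubules, was at 141 CPM against 20.8 CPM in SK-OV-3, and the potassium channel KCNJ16 at 356 CPM against 63.6 CPM in IGROV-1. SLC17A3, a urate transporter of the proximal tubule, had 16.8 CPM and no count elsewhere.

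Identifiers that join overlapping genes hold further examples, at the level of the transcript. FXYD2-202, of the gamma subunit of the sodium pump and a proposed clear cell marker, was at 1230 CPM in OVTOKO, 120 CPM in OVMANA and 11.9 and 6.87 CPM in the IGROV-1 libraries, with 2.36 CPM in SK-OV-3 and none in the remaining lines. C1S-201, of a complement protease, was at 227 CPM in OVTOKO and 88.1 CPM in OVMANA. SAA2-201 was at 59.0 CPM in OVTOKO and at most 1.59 CPM elsewhere. ZGLP1-202 took 24.4% of the counts of the identifier that joins ZGLP1, FDX2 and RAVER1 in OVTOKO (95% Wilson interval 18.8 to 30.9) and at most 4.29% in another line.

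By chromosome, the median difference between OVTOKO and the mean of the other lines on the log2(CPM + 1) scale was lowest for chromosome 9, -0.61 over 543 genes, of which 28.7% were lowest in OVTOKO, and for chromosome 19, -0.52 over 953 genes. It was highest for chromosome 22, 0.38 over 319 genes, of which 24.5% were highest in OVTOKO, and for chromosome 10, 0.16 over 538 genes, apart from 15 mitochondrial genes at 0.18. Gene dosage was not measured here.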
